A study of Mus musculus with 2 samples.

Results

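The genes described are 10 transcription factors and regulators of transcription that are known for setting the identity of macrophages in particular tissues: Sall1, Sall3, Gata6, Bhlhe40, Bhlhe41, Id1, Id2, Id3, Zeb2 and Spic. They were taken from a fixed list of symbols and not by a cut on values, though earlier results of these data were known when it was chosen. They are 10 of 21938 protein-coding genes of the GENCODE M21 annotation of GRCm38. The acetylation of histone H3 at lysine 27 (H3K27ac), a mark of active promoters and enhancers, was profiled by chromatin immunoprecipitation followed by sequencing, in macrophages grown from mouse bone marrow. The cells were of the C57BL/6J strain, were left without stimulation, and formed 1 group of 2 biological replicates, each from its own biosample but with the same donor entry in the labels, so differences between animals may be missing from their spread. Both libraries started from 10 ng of DNA. The labels record no genetic change, age and sex were not collected, and the sources used here give neither the growth factors of the culture nor the number of animals.

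Macrophages of most tissues settle early in life and take on a local program under signals of that tissue, and each program has its own regulators. SALL1 is the best known regulator of microglia, GATA6 of peritoneal macrophages (which receive retinoic acid), SPIC of the red pulp macrophages of the spleen (which recycle heme), BHLHE40 and BHLHE41 of self-renewing alveolar macrophages, and ID3 of Kupffer cells. ZEB2 is expressed in macrophages of many tissues and maintains their local programs. Bone marrow macrophages in culture have no host tissue around them.

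The deposited data are 4 lists of peaks on mm10: 1 for each replicate, and a replicated list and a pooled list that the authors made from both libraries together. The replicate lists hold 29543 and 29345 peaks, and the lists made from both hold 32877 (replicated) and 32909 (pooled). Each peak has a fold, the authors' linear ratio of its height to a control or background, which serves here to describe peaks and to rank them in their own list. Folds given in pairs belong to replicate 1 and replicate 2, in that order, and the replicated list's value carries no SD or n. A percent rank is the rank by fold as a percentage of the list, so that the highest peak is nearest 0. The sources used here give no read depth, so where no peak is listed the mark was below the authors' threshold and may still be present. In bulk chromatin, fewer cells with the mark and less of the mark per cell cannot be told apart. A promoter peak overlaps the 1 kb on either side of any annotated start of the gene, and a distal peak overlaps the gene body or the 100 kb on either side but lies over 1 kb from every start of any gene, coding or not. With 1 condition there was no difference between groups to test, and the values below are descriptions.

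The labelled cell type was checked against marker genes. All 12 macrophage markers listed, among them Sirpa, Spi1 (which encodes PU.1) and Csf1r (the receptor of colony-stimulating factor 1), had a promoter peak in both replicates. None of the listed markers of fibroblasts and stroma (0 of 8), neutrophils (0 of 8), B cells (0 of 6), T and NK cells (0 of 6), mast and stem cells (0 of 5) or erythroid cells and megakaryocytes (0 of 6) did. Of the dendritic cell markers 1 of 6 (Xcr1, folds 23.6 and 20.0) and of the endothelial markers 3 of 6 (Pecam1, Cdh5 and Kdr) had one. At Pecam1 a start of the coding gene Milr1 lies within 1 kb. The part of other cell types in the values below was not tested.

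The 10 genes fell into 3 patterns. A promoter peak was found in both replicates at 5 of 10 genes (Bhlhe40, Bhlhe41, Id2, Id3 and Zeb2), against 39.4% of all protein-coding genes, so the count of 5 is near that background. Id1 and Spic had no promoter peak but had distal peaks in both replicates, a pattern seen at 27.1% of protein-coding genes. Sall1, Sall3 and Gata6 had no peak of any kind within 100 kb in any of the 4 lists, and 21.9% of protein-coding genes had none in either replicate. The same 5 promoters carried a peak in each of the 4 lists.

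**Figure D1:**
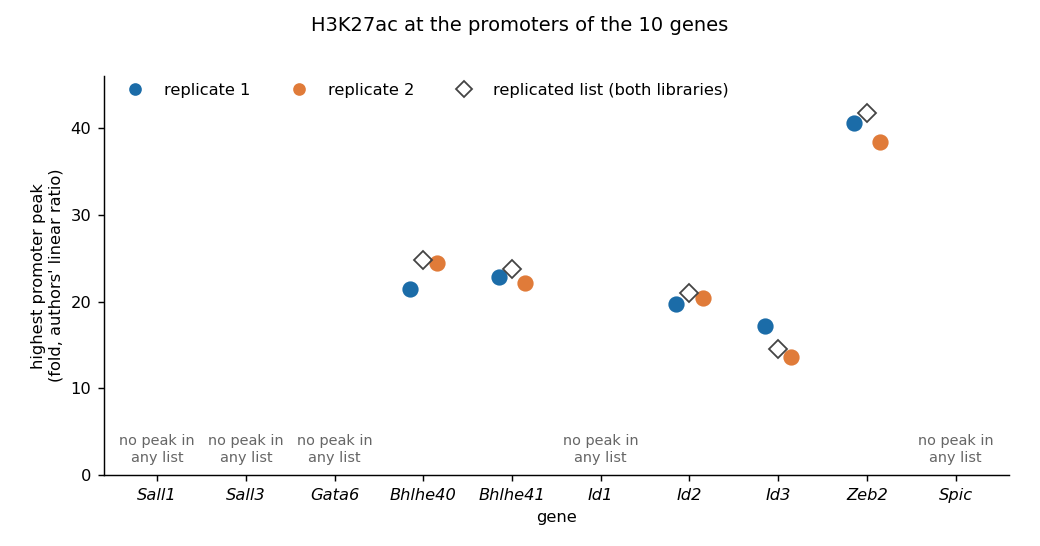
Highest fold of a promoter peak (vertical axis, the authors' linear ratio) at each of the 10 genes (horizontal axis) in replicate 1 and replicate 2 (filled circles) and in the replicated list (open diamonds). Zeb2 stands highest at 40.6 and 38.4, the other 4 marked genes lie between 13.6 and 24.5 in the replicates, and 5 genes have no promoter peak in any list.

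Sequences of promoters and of strong distal peaks are shown first, so that acetylated and unacetylated loci stand side by side. RefSeq promoter sequences (GRCm38.p6, 250 bases before to 50 after the RefSeq start) were matched for 6 of the 10 genes (Sall1, Bhlhe41, Id2, Id3, Zeb2 and Spic) and not for Sall3, Gata6, Bhlhe40 and Id1. The 4 below run 5′ to 3′ on the gene's strand and are shown to set 2 acetylated promoters beside 2 without a peak; capitals mark CpG dinucleotides. The regions are chr6:145865371-145865670 (minus strand) for Bhlhe41, chr12:25096043-25096342 (minus strand) for Id2, chr8:89044113-89044412 (minus strand) for Sall1 and chr10:88682974-88683273 (minus strand) for Spic. The Bhlhe41 window lay partly in a peak but mostly in the gap between peaks. That gap ran from 145865450 to 145865717 in replicate 1 and from 145865468 to 145865683 in replicate 2.
Bhlhe41 promoter: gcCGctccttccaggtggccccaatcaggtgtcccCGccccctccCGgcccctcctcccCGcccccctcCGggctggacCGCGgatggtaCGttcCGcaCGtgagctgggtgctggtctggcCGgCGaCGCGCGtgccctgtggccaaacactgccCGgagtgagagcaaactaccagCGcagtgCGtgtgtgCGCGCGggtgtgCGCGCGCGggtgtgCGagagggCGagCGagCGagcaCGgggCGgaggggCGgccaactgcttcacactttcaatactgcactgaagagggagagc
Id2 promoter: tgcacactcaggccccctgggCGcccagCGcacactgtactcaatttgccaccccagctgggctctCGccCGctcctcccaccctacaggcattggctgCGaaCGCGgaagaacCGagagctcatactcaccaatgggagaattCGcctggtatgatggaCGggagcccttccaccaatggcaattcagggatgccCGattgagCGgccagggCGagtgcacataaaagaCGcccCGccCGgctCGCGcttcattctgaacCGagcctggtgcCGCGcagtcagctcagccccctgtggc
Sall1 promoter: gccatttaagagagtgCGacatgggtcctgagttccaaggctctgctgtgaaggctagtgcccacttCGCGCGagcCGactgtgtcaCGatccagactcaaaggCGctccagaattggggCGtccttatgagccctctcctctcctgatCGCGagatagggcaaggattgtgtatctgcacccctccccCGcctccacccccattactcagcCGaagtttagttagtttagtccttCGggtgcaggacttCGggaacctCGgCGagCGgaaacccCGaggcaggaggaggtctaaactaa
Spic promoter: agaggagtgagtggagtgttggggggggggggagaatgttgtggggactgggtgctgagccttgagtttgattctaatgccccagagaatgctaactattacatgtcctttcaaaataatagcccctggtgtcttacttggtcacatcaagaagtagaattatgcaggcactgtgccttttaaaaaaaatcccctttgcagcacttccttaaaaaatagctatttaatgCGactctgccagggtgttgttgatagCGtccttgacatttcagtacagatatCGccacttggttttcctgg

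The Bhlhe41 window held 32 CpG and the Id2 window 21, and the unacetylated Sall1 window held 18, while the Spic window held 3. The observed over expected CpG ratio was 0.855 at Bhlhe41, 0.711 at Id2, 0.704 at Id3, 0.509 at Zeb2, 0.731 at Sall1 and 0.203 at Spic, against a median of 0.384 over 32851 RefSeq promoters. Sall1 was thus CpG-rich without a peak, with a ratio above that of 73.4% of promoters, and Spic was CpG-poor, above 29.2%. The RefSeq start of Spic lies 1992 bp inside the GENCODE 5′ end and that of Id2 1048 bp inside it.

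Words bound by factor families were searched on both strands. CACGTG, the E-box that BHLHE40 and BHLHE41 themselves bind, occurred once in the Bhlhe41 promoter (7.15% of promoters hold it), and CACCTG, the E-box of ZEB factors, occurred at 2 places there (20.2% of promoters). In the Id2 promoter, CAGCTG, an E-box of E proteins, occurred once (16.3%) and so did GGCGCC, a word of BMP-responsive elements (11.9%). The promoter of Zeb2 held the C/EBP word TTGCNNAA (10.8%). None of the 9 words searched, which also included GAGGAAGT for PU.1, TGANTCA for AP-1, TGCTGAC for MAF and AGATAA for GATA factors, occurred in the promoters of Sall1, Id3 or Spic. No matches overlapped each other in these windows, and a match is a description of the letters, not a site of binding.

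The next sequences are the 300 bp around the summit of 4 of the strongest distal peaks, as placed in the replicated list, at the loci where a distal peak rather than the promoter carried the highest fold or came near it. They run 5′ to 3′ on the plus strand of GRCm38.p6 and capitals mark the words found (TTATCT is AGATAA on the other strand). The regions are chr12:25190065-25190364 for Id2, chr2:45197058-45197357 for Zeb2, chr2:152789217-152789516 for Id1 and chr10:88578412-88578711 for Spic, and each name gives the distance from the gene's 5′ end in the direction of transcription.
Id2 -93.1 kb: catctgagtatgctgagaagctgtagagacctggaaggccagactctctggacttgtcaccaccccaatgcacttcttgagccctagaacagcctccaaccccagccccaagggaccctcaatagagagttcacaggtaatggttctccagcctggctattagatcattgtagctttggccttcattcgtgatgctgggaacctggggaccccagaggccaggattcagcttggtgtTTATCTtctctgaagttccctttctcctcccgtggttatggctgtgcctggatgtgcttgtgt
Zeb2 -79.8 kb: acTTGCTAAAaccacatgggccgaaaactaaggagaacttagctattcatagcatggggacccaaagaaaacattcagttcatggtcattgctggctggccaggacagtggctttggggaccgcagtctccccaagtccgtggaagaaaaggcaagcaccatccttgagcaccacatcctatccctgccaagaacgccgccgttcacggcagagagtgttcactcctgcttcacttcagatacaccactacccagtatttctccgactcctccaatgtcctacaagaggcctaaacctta
Id1 +53.1 kb: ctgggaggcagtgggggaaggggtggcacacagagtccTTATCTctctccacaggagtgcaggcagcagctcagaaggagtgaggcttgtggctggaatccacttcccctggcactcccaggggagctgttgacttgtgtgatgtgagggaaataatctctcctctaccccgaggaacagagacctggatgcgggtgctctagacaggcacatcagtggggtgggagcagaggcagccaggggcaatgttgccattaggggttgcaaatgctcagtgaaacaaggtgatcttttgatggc
Spic +106.5 kb: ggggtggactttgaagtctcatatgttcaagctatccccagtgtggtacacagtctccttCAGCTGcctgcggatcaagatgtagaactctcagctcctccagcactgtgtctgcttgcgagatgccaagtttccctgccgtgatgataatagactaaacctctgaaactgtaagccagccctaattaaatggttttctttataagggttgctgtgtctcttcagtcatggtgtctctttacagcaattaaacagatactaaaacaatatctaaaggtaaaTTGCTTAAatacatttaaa

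The word AGATAA was found once in the Id2 and once in the Id1 peak, against 13.7% of the 17659 distal peaks of the replicated list over the same length. Of the distal windows not printed, those of Id1 at +74.5 kb, Bhlhe40 at +80.5 kb and Id3 at -20.4 kb also held it once. That of Bhlhe41 at +62.2 kb did not. The Zeb2 and the Spic peak each held TTGCNNAA once (12.04% of distal peaks), and the Spic peak also held CAGCTG (17.8%). The PU.1, AP-1 and MAF words were in none of the 4 windows. CpG ratios were 0.0964 in the Id2 window, 0.423 in the Zeb2 window, 0.0874 in the Id1 window and 0.231 in the Spic window, with a median of 0.176 over the distal peaks.

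Sall1, Sall3 and Gata6 encode zinc finger factors and lay in regions without any peak. Sall1 (chr8:89027235-89044162, minus strand), which encodes the factor that keeps microglia in their own program, had its nearest peak 346202 bp from the 5′ end in replicate 1 and 346177 bp in replicate 2. That peak lay downstream, with folds of 7.53 and 12.2. On the upstream side the nearest peak was 1784669 and 1751366 bp away. The lists made from both libraries held a weaker upstream peak 1346774 bp away, with a fold of 2.31. The distance from Sall1 to its nearest peak, whichever side that lay on, was the longest of the 10 genes in each of the 4 lists.

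Sall3 (chr18:80966376-80986771, minus strand), a relative of Sall1 that microglia also express, had its nearest peak 247666 bp downstream in replicate 1 and 247681 bp in replicate 2, with folds of 11.5 and 11.1. Upstream the distances were 1482261 and 1481887 bp. Its coding neighbour Atp9b, with a 5′ end 52.7 kb downstream, had no promoter peak in either replicate. Gata6 (chr18:11052064-11085635, plus strand), the factor of peritoneal macrophages, had its nearest peak 200262 bp upstream in replicate 1 (fold 10.8) and 199853 bp upstream in replicate 2 (fold 3.52). On its downstream side the nearest peaks lay 300563 and 300495 bp away, with folds of 6.88 and 4.69. When the window was widened to 250 kb on either side, Sall3 gained 1 distal peak of both replicates, Gata6 gained 2 and Sall1 gained none.

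**Figure D2:**
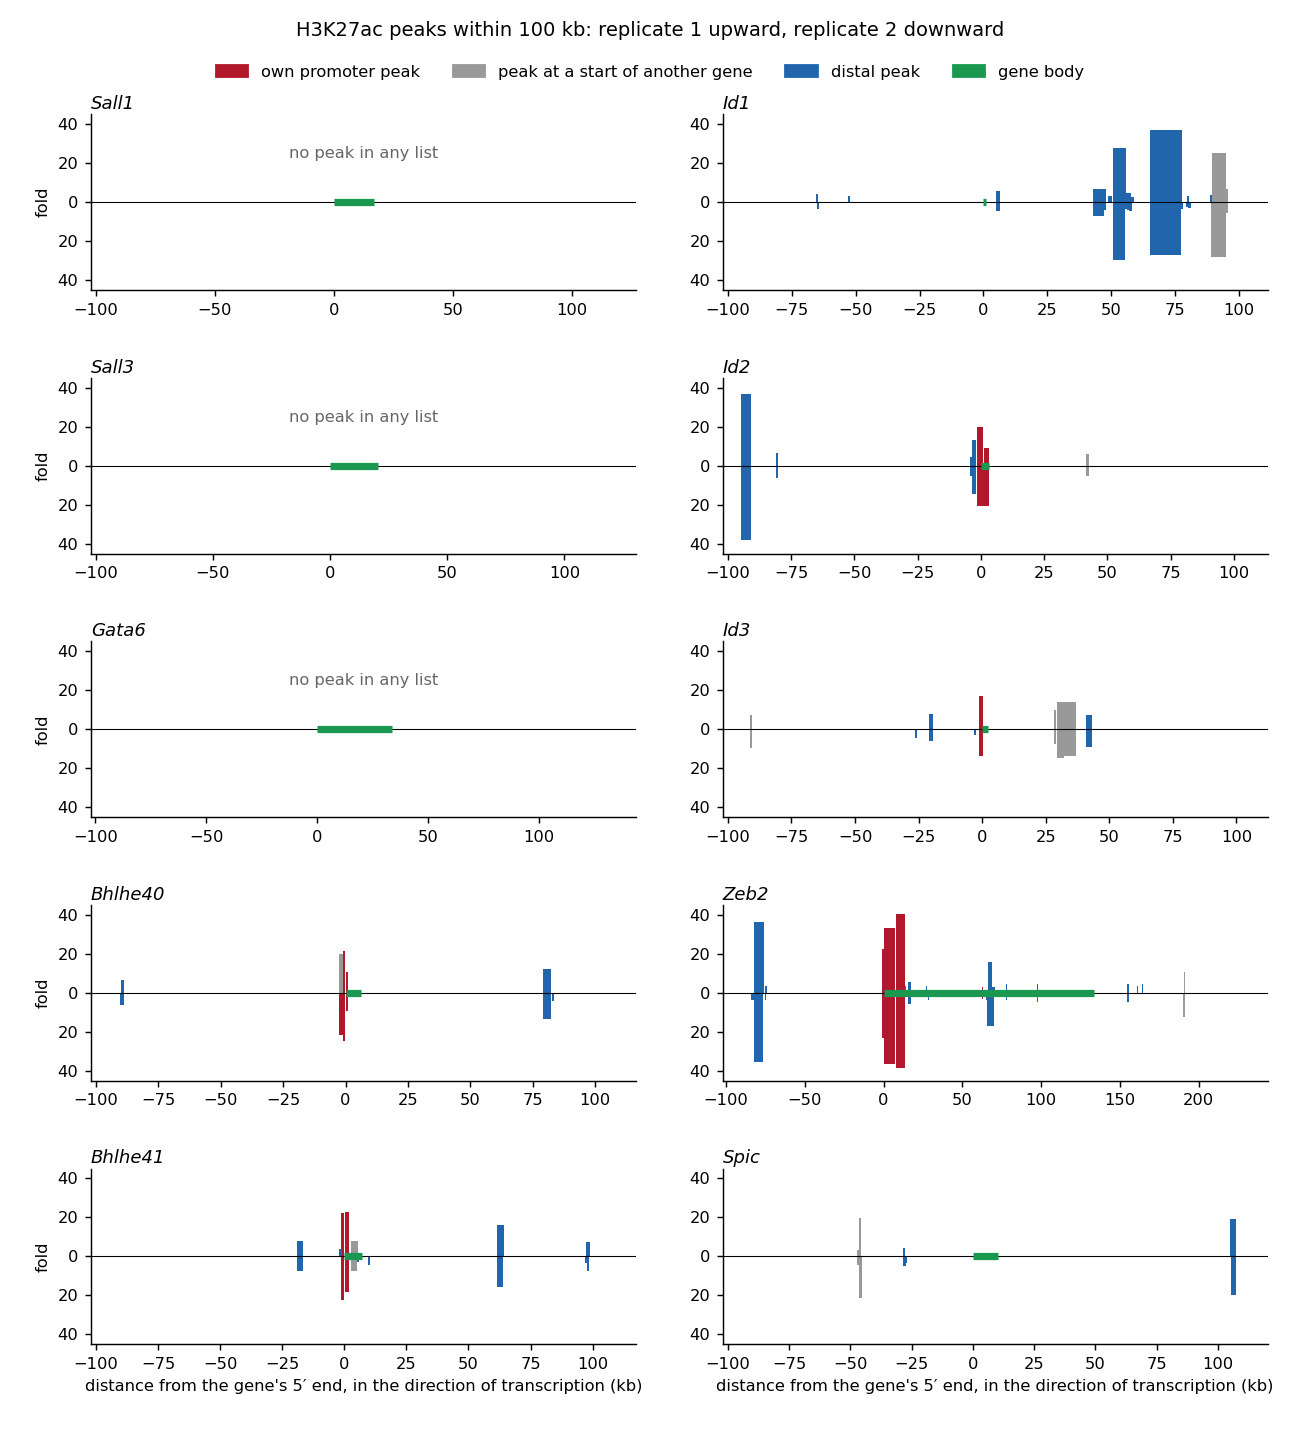
Peaks around each of the 10 genes, by distance from the gene's 5′ end in the direction of transcription (horizontal axis, kb), with height giving the fold (replicate 1 upward, replicate 2 downward) and width the width of the peak, drawn at 0.9 kb or more. Red bars are the gene's own promoter peaks, blue bars distal peaks and grey bars peaks at a start of another gene; the strongest distal bars of Id2 and Zeb2 stand upstream, those of Id1 and Spic downstream, and 3 panels are empty.

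Bhlhe40 and Bhlhe41 encode related basic helix-loop-helix repressors that bind E-boxes, and the highest peaks of both promoters were of like height. Bhlhe40 (chr6:108660629-108666925, plus strand) had its highest promoter peak at folds of 21.5 and 24.5 in the replicates, with 24.8 in the replicated list (percent ranks 8.80 and 6.69). Bhlhe41 (chr6:145858243-145865558, minus strand) reached 22.9 and 22.1, with 23.7 in the replicated list (percent ranks 7.56 and 8.72). Means were 23.0 ± 2.09 for Bhlhe40 and 22.5 ± 0.541 for Bhlhe41 (SD, n = 2), and the replicate values overlapped, so the promoters could not be ordered. The Bhlhe41 mean joins different peaks, since the highest was on the gene's side in replicate 1 and upstream in replicate 2.

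Both promoters were split by a gap over the 5′ end. At Bhlhe40 the nearest peak ended 207 and 150 bp upstream of the 5′ end, and the next began 36 and 47 bp downstream, with folds of 10.5 and 9.49 on the gene's side. Both of these Bhlhe40 peaks also lay within 1 kb of a start of the noncoding gene 0610040F04Rik. At Bhlhe41 the gaps were 159 and 125 bp on the upstream side and 108 and 90 bp on the downstream side. The Bhlhe41 peak on the gene's side, chr6:145863570-145865450 in replicate 1, had folds of 22.9 and 18.05, and the one upstream, chr6:145865717-145866726, had 22.0 and 22.1. The Bhlhe41 peak on the gene's side also lay within 1 kb of a start of the gene Gm43909 in both replicates. Among the 5 marked genes, Id2, Id3 and Zeb2 had their 5′ end inside a peak of both replicates, as did 37.9% of the 8633 protein-coding genes with a promoter peak in both. A further peak near Bhlhe40, chr6:108658034-108659434 in replicate 1, had folds of 20.0 and 21.8. It lay within 1 kb of the start of the noncoding gene Gm17055 in replicate 1 and within 1 kb of Bhlhe40 in replicate 2, where it counted among the promoter peaks of Bhlhe40.

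Distal peaks at these 2 loci were of middle rank. Bhlhe40 had 2 that both replicates shared, at +80.9 kb (folds 12.05 and 13.6) and at -89.4 kb (6.37 and 6.03), in sequence between genes. The nearest coding start was that of Arl8b for the first and of Itpr1 for the second. Bhlhe41 had 4, of which the highest, at +62.9 kb, lay in an intron of Rassf8 (15.8 and 15.9). The others were at -17.2 kb (7.84 and 7.71) and -18.4 kb (7.92 and 7.37), nearest to Bhlhe41 itself, and at +98.0 kb in an intron of Rassf8 too (7.57 and 7.54). At both genes the highest distal fold was below the promoter fold in each replicate.

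The Id genes encode helix-loop-helix proteins without a DNA-binding region, which pair with E proteins and keep them off DNA, and are induced by BMP signals. The 3 members differed from each other. Id2 (chr12:25093799-25097140, minus strand), which is known in dendritic cells and innate lymphoid cells, had its highest promoter peak at a fold of 19.8 and 20.4 (21.1 in the replicated list; percent ranks 10.8 and 10.5). Id3 (chr4:136143497-136145755, plus strand), which is needed by Kupffer cells, had percent ranks of 14.4 and 22.0 for its promoter peak, the lowest standing of the 5. Id1 (chr2:152736251-152737410, plus strand) had no promoter peak in any list, and its nearest peak began 4837 bp downstream in replicate 1 and 4948 bp in replicate 2.

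At Id2 the acetylation continued over the gene. In replicate 2 a single peak of 4716 bp, chr12:25094092-25098807, covered the 5′ end and nearly the whole gene. In replicate 1 the same stretch was 2 peaks, chr12:25096186-25098808 at 19.8 and chr12:25094012-25096027 at 9.29, and the RefSeq start used for the printed promoter lies in the gap between them. Just upstream, at -2.7 kb, a further distal peak had folds of 13.2 and 14.6.

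The strongest peak of the Id2 locus was not at the promoter. At -92.8 kb, chr12:25188082-25191873 had folds of 36.7 in replicate 1 and 38.2 in replicate 2, with 40.4 in the replicated list, the highest shared distal peak of the 10 loci in that list. Its percent ranks were 1.17 and 0.970, against 10.8 and 10.5 for the promoter. It lay in an intron of the long noncoding gene Gm36287, and the nearest coding start was that of Id2, 90942 bp from the edge of the peak. The other shared distal peak of the far side, at -80.7 kb, had folds of 6.37 and 6.20. With all annotated starts counted, Id2 was the 1 gene of the 5 with a promoter peak whose highest distal fold exceeded its promoter fold in both replicates. The highest Zeb2 distal peak (36.4 and 35.4) stood below the highest peak at an internal Zeb2 start (40.6 and 38.4). It stood above the peak over the Zeb2 5′ end (22.2 and 23.3).

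Id1 had many distal peaks without a promoter peak. It had 9 shared distal peaks within 100 kb, a number exceeded at 3.06% of protein-coding genes, and 4.47 per 100 kb of window, against a median of 0.467. The count was 4 where peaks had to overlap by 50% or more of each, 3 among the 20000 highest peaks of each list and 3 within 50 kb. On average over the replicates, 17.6% of the window lay inside a peak, a share exceeded by 0.962% of protein-coding genes (median 1.99%). That share counts every peak of the window, promoter peaks of the neighbour Bcl2l1 included. Those took up 5625 and 306 bp of 36147 bp in replicate 1, and 6133 and 332 bp of 34475 bp in replicate 2. The highest distal peaks were at +71.3 kb, chr2:152801240-152813856 in replicate 1 (12617 bp wide), with folds of 36.9 and 27.1, and at +53.1 kb, chr2:152786839-152791862, with 27.7 and 29.6. Their percent ranks were 1.10 and 4.88 for the first, and 4.22 and 3.57 for the second.

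Both of these peaks lay in an intron of Bcl2l1, which encodes the survival protein BCL-XL. The promoter of Bcl2l1, 95.5 kb from the 5′ end of Id1, was itself acetylated at folds of 25.4 and 27.8. Near Id1 the values were lower: the nearest peak, at +5.6 kb, had folds of 5.73 and 4.51. The neighbours Mcts2 and Cox4i2 had no promoter peak in either replicate or the replicated list, and H13 had one in the replicated list (3.15) and in neither replicate. In a count by distance these peaks fall to both genes, and which gene they act on was not tested. One of the 9, at +89.0 kb, had a fold of 3.96 in replicate 1, and it met a peak of 27.8 of replicate 2 that reaches the Bcl2l1 start, so its values are not those of 1 element, and 2 further peaks, at +56.8 and +58.3 kb, met the same replicate 2 peak (4.69).

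Id3 had 2 shared distal peaks of middle rank, at -20.1 kb between genes (folds 7.74 and 6.20) and at +42.1 kb in an intron of the cell cycle gene E2f2 (7.10 and 8.88). The acetylated share of its window, 7.43%, came mostly from other genes' promoters: E2f2 had a promoter peak at 13.8 and 14.9, and the peak at the ribosomal protein gene Rpl11 in the window had 7.40 and 9.38. Asap3, on the far side, had none.

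Zeb2 encodes a zinc finger and homeodomain repressor of E-box sites, and had the highest promoter fold of the 10 when all annotated starts were counted. The gene (chr2:44983632-45117395, minus strand) has 29 annotated starts, and 4 peaks in each replicate lay within 1 kb of one of them. The highest, chr2:45103992-45109544 in replicate 1, had folds of 40.6 and 38.4 (41.8 in the replicated list) and ranked 183 of 29543 and 277 of 29345 peaks. It lay 10.6 kb inside the gene, at an internal start. Next to it, chr2:45109863-45117112, 7250 bp wide in replicate 1, had 33.2 and 36.5, and the peak over the 5′ end itself, chr2:45117235-45118484, had 22.2 and 23.3. The peak of 33.2 and 36.5 also lay within 1 kb of starts of Zeb2os, Gm27404, Gm27645 and Gm27761. The fourth, at an internal start 62.9 kb into the gene, was weak, at 3.11 and 3.18.

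Of the marked protein-coding genes, 1.48% had a higher mean promoter fold than Zeb2, against 13.9% for Bhlhe40, 14.7% for Bhlhe41, 19.3% for Id2 and 30.8% for Id3. In decreasing order the means were those of Zeb2 (39.5 ± 1.56), Bhlhe40, Bhlhe41, Id2 (20.1 ± 0.464) and Id3 (15.4 ± 2.55; SD, n = 2 each). The replicate values of neighbours in this order overlapped for Bhlhe40 and Bhlhe41 and for no other pair. The Zeb2 mean is from an internal start, and within 1 kb of the 5′ end alone it was 34.8, still the highest of the 5. The peak over the 5′ end of Zeb2 had folds of 22.2 and 23.3, between the replicate values of Bhlhe40 (21.5 and 24.5). The median of the 5 mean promoter folds was 22.5, against 10.8 over all marked protein-coding genes, and the median percent rank was 8.14, against 30.5.

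Zeb2 also had 9 shared distal peaks, or 3 among the 20000 highest peaks of each list. The highest, at -78.8 kb, chr2:45193025-45199421 in replicate 1, had folds of 36.4 and 35.4 (38.2 in the replicated list; percent ranks 1.23 and 1.57), lay between genes, and had the start of Zeb2 as its nearest coding start. Within the gene, an intronic peak at +67.5 kb, chr2:45048395-45051301, had 15.8 and 16.9. Replicate 2 had 1 peak of 4481 bp there, which also met 2 weak replicate 1 peaks of 2.88 and 3.07, so 3 of the 9 share 1 partner. Of the remaining 5, the values ran from 3.27 to 5.69 in replicate 1 and from 3.48 to 5.53 in replicate 2. Zeb2 has a long window (333764 bp), and per 100 kb its count was 2.70, a density exceeded by 8.95% of protein-coding genes.

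Spic (chr10:88674772-88685015, minus strand) encodes an ETS factor related to PU.1 and is induced by heme when its repressor BACH1 is removed. No list had a peak at either of its 2 annotated starts or in the gene. The nearest peak lay 27730 bp from the 5′ end in replicate 1 and 26906 bp in replicate 2, upstream, and the shared peak there had folds of 4.13 and 5.20. The strongest distal peak, at +106.3 kb, chr10:88577513-88579872, had folds of 19.0 and 19.9 (20.9 in the replicated list, with percent ranks of 11.7 and 11.2 in the replicates). It lay in an intron of Mybpc1, a muscle myosin-binding protein gene whose own promoter had no peak. Of the coding neighbours, Arl1, whose 5′ end lies at -45.8 kb, had a promoter peak of 19.6 and 21.1.

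Over the 10 loci, replicate 1 had 62 peaks and replicate 2 had 65. Of these, 54 of 62 (87.1%) overlapped a replicate 2 peak, and 57 of 65 (87.7%) overlapped a replicate 1 peak. The peaks of 1 replicate alone were weak: the highest was 4.30 among the 8 of replicate 1 (at Zeb2) and 4.52 among the 8 of replicate 2. The replicated list held 72 peaks at these loci and the pooled list 67, of which 65 were identical, and 10 of the replicated list met no peak of either replicate, at folds of 2.42 to 3.53. None of those 10 was at a promoter of the 10 genes.

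Distal peaks of both replicates were found at 7 of 10 genes, against 58.8% of all protein-coding genes. The counts were 9 at Id1 and Zeb2, 4 at Bhlhe41 and Id2, 2 at Bhlhe40, Id3 and Spic, and 0 at the other three. That gave 32 in all, with a median of 2 per gene, against 1 over all protein-coding genes (quartiles 0 and 3).

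**Figure D3:**
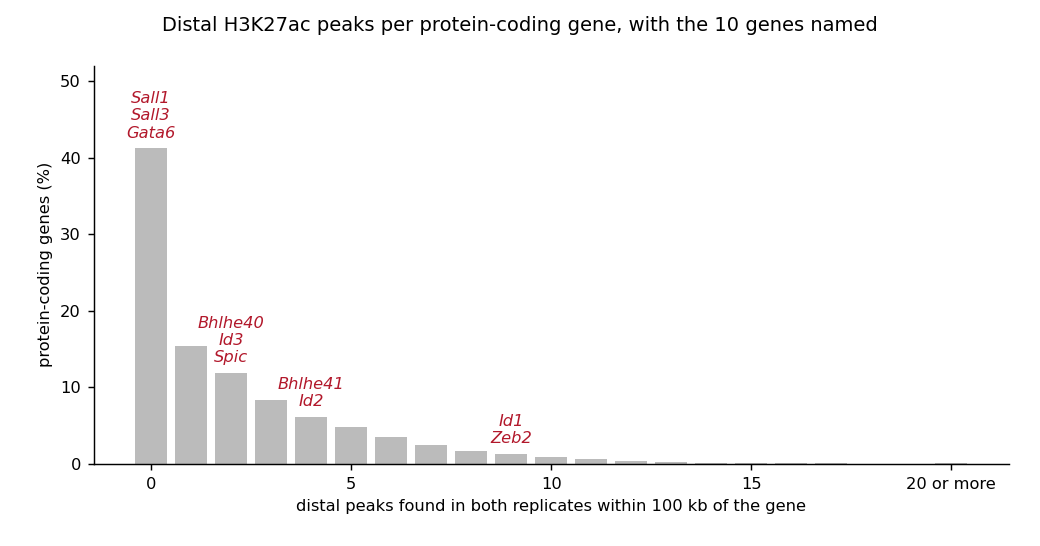
Share of protein-coding genes (vertical axis, %) by the number of distal peaks found in both replicates within 100 kb (horizontal axis; genes with 20 or more share the last bar), with the 10 genes named above the bar they belong to. Sall1, Sall3 and Gata6 stand at 0 and Id1 and Zeb2 at 9.

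The distal peaks were spread unevenly in rank. By the mean percent rank of the replicates, 4 of the 32 shared distal peaks (12.5%) lay in the upper 5%, against 4.64% of the 13859 shared distal peaks of the genome, and these 4 are the Id2, Zeb2 and Id1 peaks described above. A distal peak in the upper 5% of both replicates was found at 3 of 10 genes, against 7.67% of all protein-coding genes. The limit of 5% was chosen after the values were seen, so these shares are descriptions only. The 2 Id1 peaks lay close to it, at percent ranks of up to 4.88 and 4.22. The rest were of ordinary standing: 5 ranked between 5% and 25%, 6 between 25% and 50%, 10 between 50% and 75% and 7 below that. The median percent rank was 53.3, against 50.4 for all shared distal peaks.

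**Figure D4:**
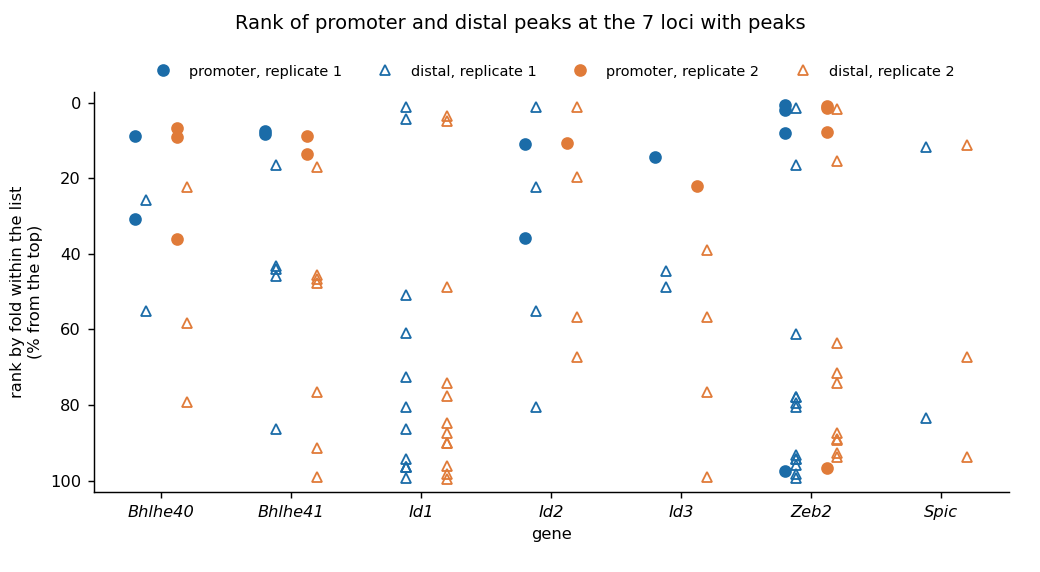
Percent rank by fold within the replicate's list (vertical axis, 0 at the top is the highest fold) of each promoter peak (filled circles) and distal peak (open triangles) at the 7 loci with peaks, replicate 1 left of replicate 2 at each gene. Most distal peaks of Id1 and Zeb2 sit below 50%, while the strongest at Id1, Id2 and Zeb2 lie in the upper 5%.

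Genes of the same families and of the pathways that act on the 10 were described from 12 lists of 106 genes, of which 53 (50%) had a promoter peak in both replicates; genes given as without one had it in neither replicate. Of the family relatives, 2 of 13 had one: Spi1, the relative of Spic, at 50.8 and 50.3, and Zeb1, the relative of Zeb2, at 5.85 and 6.03. The remaining SALL and GATA genes, Id4, Spib and the relatives Bhlhe22 and Bhlhe23 had none in either replicate. Within the ZEB pair, Zeb2 stood above Zeb1 in each replicate, and within the ETS pair Spi1 had a promoter peak where Spic had none.

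The partners of the Id proteins were all marked. The E protein genes Tcf4 (25.8 and 26.6), Tcf3 (22.7 and 22.6) and Tcf12 (22.2 and 23.0) made 3 of 3. In TGF-beta and BMP signalling 11 of 19 genes had a promoter peak, led by the receptor gene Tgfbr2 (21.3 and 20.4), the ligand gene Tgfb1 (22.1 and 26.0) and the inhibitor gene Smad7 (11.7 and 14.6), and the activin receptor genes Acvr2a and Acvr2b had none. Acvr2a had a weak one in the pooled list (2.96).

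The genes of heme and iron handling, which bear on Spic, made 9 of 9. The ferritin genes Ftl1 (46.5 and 46.9) and Fth1 (38.9 and 42.4) and the biliverdin reductase gene Blvra (36.3 and 38.7) were highest. Retinoic acid signalling, which bears on Gata6, made 4 of 8: the receptor genes Rarg (23.9 and 27.5) and Rxrb (19.3 and 23.8) had like values in the replicates, Rara had 9.46 and 26.5, and the retinoic acid synthesis genes Aldh1a1 and Aldh1a2 had none. At Rxrb a start of the coding gene Slc39a7 lies within 1 kb. In Notch signalling 3 of 4 had one, with Rbpj, the DNA-binding partner of Notch, at 24.95 and 34.4, Notch2 at 11.9 and 12.1, Notch1 at 6.37 and 8.21, and Hes1 with none.

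**Figure D5:**
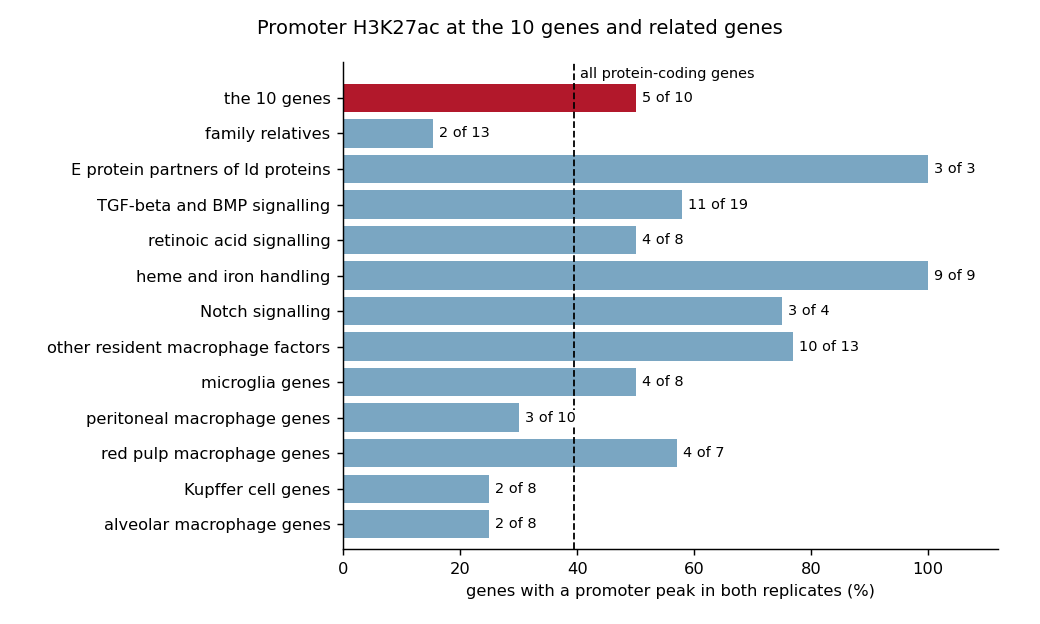
Share of genes with a promoter peak in both replicates (horizontal axis, %) for the 10 genes (red) and for 12 lists of related genes (blue), with counts beside the bars and the share of all protein-coding genes as a dashed line at 39.4%. Heme and iron handling (9 of 9) and the E proteins (3 of 3) reach 100%, and the family relatives (2 of 13) are lowest.

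Other factors of resident macrophages had a promoter peak at 10 of 13 genes, led by Maf (30.3 and 31.8), Nr1h3 (27.7 and 18.9) and Mef2c (28.4 and 25.8). A start of the coding gene Acp2 lies within 1 kb at Nr1h3, and which of these genes the peak acts on was not tested. Cebpb and Nr4a1 had none in either replicate, though Cebpb had one in the replicated list (4.36). The genes that mark the resident cells themselves were mixed. Microglia genes made 4 of 8, with the purine receptor gene P2ry12 at 20.7 and 19.2 and Gpr34 at 9.81 and 11.4, and with none for Olfml3 and Siglech. Red pulp macrophage genes made 4 of 7, with the heme oxygenase gene Hmox1 at 18.2 and 21.8, Cd163 at 12.4 and 14.4 and Il18bp at 8.36 and 11.1, and with none for Epor and Treml4. Treml4 had a weak one in the replicated and the pooled list (2.78 in each).

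Peritoneal macrophage genes made 3 of 10 (Icam2 at 9.12 and 8.71, F10 at 6.19 and 7.04, Garnl3 at 6.54 and 6.20), and 1 more (Aspa) had a peak in replicate 1 alone. Alox15 and F5 had none. Kupffer cell genes made 2 of 8 (Nr1h3 as above and Cdh5 at 18.2 and 16.4), without C6 and Cd5l, and alveolar macrophage genes made 2 of 8 (Siglecf at 11.1 and 10.7 and Pparg at 6.45 and 6.62), without Car4 and Chil3. Hmox1, Slc40a1, Nr1h3 and Pparg each stand in more than 1 list.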

How the data were processed

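The authors deposited 4 peak lists in narrowPeak form on mm10. Text files that accompany the samples record that each replicate's list came from its own alignments, and that the replicated and pooled pseudoreplicated lists came from both replicates together. The deposited fold is a linear ratio to a control or background. The deposited q-values are on a −log10 scale, and the deposited summit offsets placed the printed windows. The sources used here do not name the aligner, the peak caller, its settings or the read depth.

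Peaks were joined to GENCODE M21 genes (132721 starts of 55413 genes) in Python 3.11.15 with numpy 2.4.6, pandas 2.3.3 and pysam 0.24.0, and the joins were tested on simulated peaks. Coordinates are 1-based. A distal peak of replicate 1 was called shared when a replicate 2 peak overlapped it by at least 1 bp, with the highest such peak as its partner. Sequences are from RefSeq (GRCm38.p6). The 10 genes and the lists were chosen with earlier results of these data known, and the upper 5% was chosen after the values were seen. From each list, the text names the 3 marked genes highest in the replicated list and the first 2 by alphabet without a peak in either replicate, apart from an item that is not reported here; other relatives, Aspa and Slc40a1 were named after their values were seen. Alternatives were other windows, filters on peaks, overlaps, gene sets and lists, and each replicate alone.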

Additional observations from a re-analysis of the deposited data

How the results depend on the processing

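The 5 genes with a promoter peak and, at 100 kb, the 7 with a distal peak were the same under every alternative run for the promoter window, the peak filter, the list and the overlap. Genes with a shared distal peak numbered 6 at 50 kb, 9 at 250 kb and 1 (Zeb2) in the gene body alone. The 32 shared distal peaks became 17 at 50 kb, 63 at 250 kb, 6 in gene bodies, 18 among the 20000 highest peaks, 49 in the replicated list, and 40 to 43 in a single replicate. The median percent rank of promoter peaks, 8.14, became 8.64 at a −log10 q of at least 5, 11.98 among the 20000 highest peaks, 7.35 in the replicated list, 7.34 in the pooled list, and 8.72 to 8.80 in a single replicate. That of distal peaks, 53.3, became 56.8 at 50 kb, 49.8 at 250 kb, 59.8 in gene bodies, 46.2 with neighbours' promoters counted, 49.0 at a −log10 q of at least 5, 49.9 among the 20000 highest, 75.4 in the replicated list, 64.9 in the pooled list, 74.1 to 75.1 in a single replicate, 45.5 at an overlap of 50% of both peaks and 55.9 counted over replicate 2. Single replicates and joint lists add weak peaks that the other replicate lacks. The background share of promoters, 39.4%, was 20.4% over genes of all biotypes. The median of all shared distal peaks was not recomputed under these alternatives, so the order of the 10 loci against it is not settled. No paired analysis was possible because the series has 1 group. With no depth given, weak acetylation below the authors' threshold was not detectable.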
